A study of Arabidopsis thaliana with 18 samples.

Results

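The change in the response of Arabidopsis shoots to the endophytic fungus Serendipita indica between 22 and 25°C was taken as an interaction, gene by gene. It is the difference between samples grown with the fungus (Si) and without it (CK) at 25°C minus the same difference at 22°C, on the log2(TPM + 1) scale, where TPM is a level corrected for gene length and scaled to a fixed sum per sample. A positive value means that Si stood higher relative to CK at 25°C than at 22°C, and a negative value the reverse. The rule takes 12 of the 18 samples, 3 in each of 4 groups (CK at 22°C, Si at 22°C, CK at 25°C and Si at 25°C), and 20044 of the 33039 genes in the table, those that reached 1 TPM in 3 or more of the 18 samples. All plants were wild type Col-0. Seedlings raised at 22°C on diluted MS medium that held 1.2% sucrose were moved at the age of 9 days to plates of plant nutrient medium (PNM), with the fungus or without it, kept at 22 or 25°C under 12 h of light, and their aboveground parts were taken at 7 days post inoculation (dpi). The fungus grows in roots, so the tissue measured is not the one it colonizes. By this description the groups differ in the fungus on the plate and the temperature of the last days before harvest. Whether growth chamber, plate batch or harvest time differed as well is not stated. In the lists of values below, the samples of a group come in the order of replicates 1, 2 and 3.

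S. indica is a root endophyte that promotes the growth of many plants and changes gene expression in the shoot at a distance. Among the shoot programmes examined here are jasmonate signalling and the sugar-starvation programme. In jasmonate signalling, JAZ proteins hold back MYC2 until the hormone has them degraded, and are themselves induced by it. The sugar-starvation programme is repressed when carbohydrate is plentiful. Warm growth temperature by itself drives elongation through PIF4 and changes cell wall, auxin and defence genes. The interaction asks for which of these the effect of the fungus differed between the temperatures.

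Of the 20044 genes tested, 876 (4.37%) had a higher and 1074 (5.36%) a lower Si effect at 25°C at an adjusted p of at most 0.05, together 1950 genes (9.73%). The test was that of limma, two-sided, with p-values adjusted by the Benjamini-Hochberg method over all genes tested. Most of these changes were small: 115 of the 876 higher and 310 of the 1074 lower interactions were larger than 1 on the log2 scale. The median interaction of called genes was 0.52 upward and -0.64 downward, beside 0.02 over all genes. Among genes with a mean above 100 TPM the calls reached 10.9% upward and 10.6% downward, and among those under 5 TPM 2.51% and 1.54%. Leaving out any 1 of the 12 samples gave between 488 and 1131 higher and between 717 and 1183 lower calls. The higher count moved by over 1.5 times without CK sample 2 at 22°C (532), CK sample 2 at 25°C (488), Si sample 3 at 22°C (576) or Si sample 1 at 25°C (496), and the lower count stayed within that range. Between 60.2% and 89.8% of the 1950 calls were made again in these fits. None of the 1950 that were still tested changed sign in any of them. Fitted on the 12 samples alone, with 19386 genes past the filter, the data gave 509 higher and 731 lower calls, and 60.9% of the 1950 were called again.

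The called genes were sorted by whether Si and CK differed at each temperature. A higher interaction mostly meant a larger rise: in 412 genes a rise at 22°C was enlarged at 25°C, and in 310 a rise was called only at 25°C, against 92 genes whose fall at 22°C was no longer called, 24 whose fall became smaller and 38 whose direction reversed. Lower interactions were more mixed. In 368 genes the rise at 22°C was no longer called at 25°C and in 134 it was smaller, while in 239 genes a fall was called only at 25°C, in 219 an existing fall deepened and in 114 the direction reversed. These words depend on the zero of each Si effect, since 47.4% of all genes were called higher in Si at 22°C and 47.8% at 25°C, with a median difference of 0.26 at both. Scaling the samples by median-of-ratios factors brought both medians to 0.01. The calls of Si against CK then became 4927 higher and 5083 lower at 22°C, in place of 9507 and 2138, and 5626 and 5498 at 25°C, in place of 9580 and 2698. Under that scaling 573 genes were in the groups of gained or enlarged rises and 259 in those of lost or reduced falls, in place of 722 and 116, and 354 in those of lost or reduced rises and 634 in those of gained or deepened falls, in place of 502 and 458. The interaction had 891 higher and 1115 lower calls and a median of 0.02. Quantile normalization turned the excess of lower calls, with 1191 higher and 1084 lower.

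**Figure D1:**
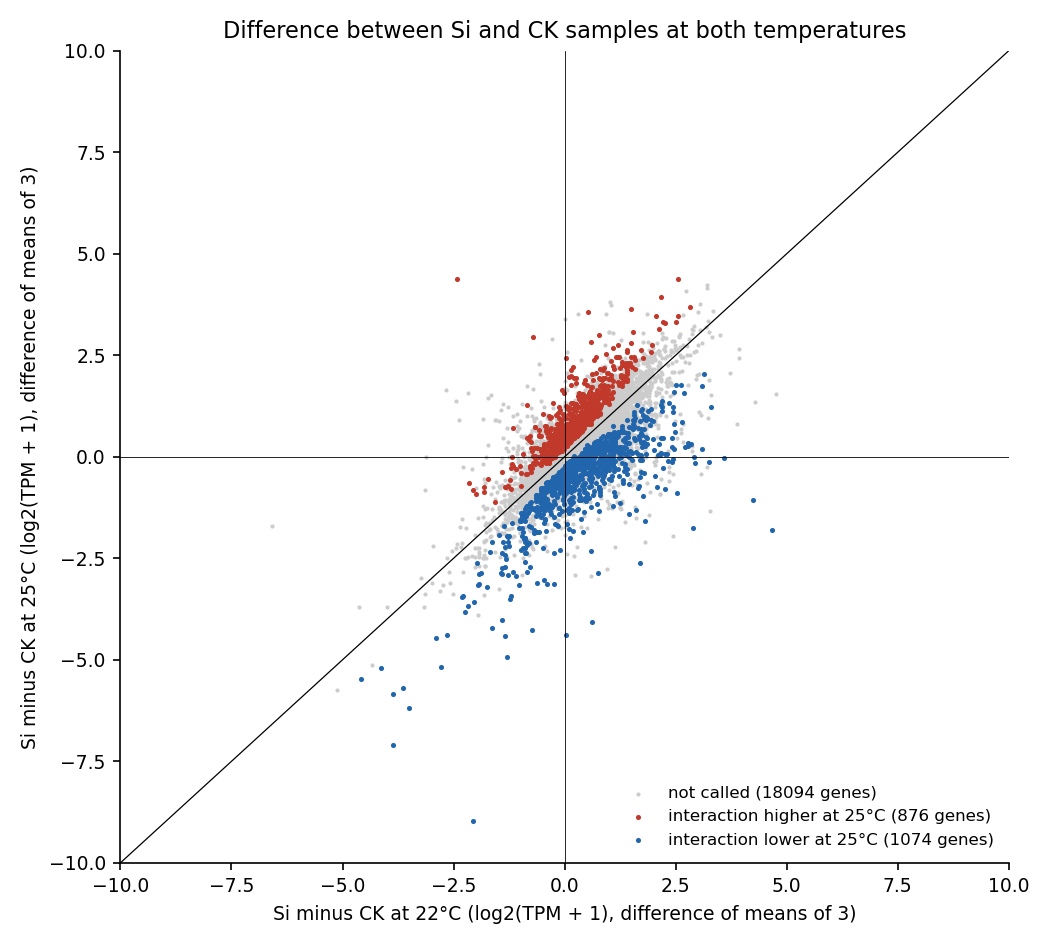
Difference between Si and CK samples at 22°C (x axis) and at 25°C (y axis) for the 20044 genes tested, both on the log2(TPM + 1) scale, each as a difference of means of 3 samples. Red points are the 876 genes with a higher and blue points the 1074 genes with a lower interaction, grey points were not called, and the diagonal marks equal effects. The blue points spread further from the diagonal than the red ones.

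Taken the other way, the same 4 means show in which plants the level moved with temperature. Over all genes 8.74% were higher and 2.4% lower at 25°C than at 22°C in CK, and 16.6% higher and 7.06% lower in Si. Among the 876 higher interactions, 587 genes (67%) were called higher at 25°C in Si with no call in CK, and 146 were called lower in CK with no call in Si. Of the 1074 lower interactions, 562 (52.3%) were lower in Si alone, 294 were higher in CK alone and 114 were higher in CK and lower in Si. Because the 2 temperature contrasts share their samples with the interaction, these counts are a description and not a second test.

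The replicates of a group correlated between 0.975 and 0.984 over genes, which are not independent, and 17531 to 18918 genes per sample reached 1 TPM. The summed level of 12 shoot markers, all detected, lay between 25493 and 29392 TPM in the 12 samples. Of 18 root markers, 14 had a median under 1 TPM and CASP2, an endodermis gene, was listed at 0 in all 12 samples. Their summed level was 7.78 to 9.21 TPM in CK at 22°C and 8.31 to 9.27 TPM in CK at 25°C, against 15.04 to 18.57 TPM in Si at 22°C and 17.65 to 22.82 TPM in Si at 25°C. NRT2.1, a nitrate transporter of roots, was 1 of the 6 root markers that passed the filter and had the only call among them (1.08, adjusted p = 0.022), which was lost without Si sample 1 at 25°C. Its level was 5.19, 3.48 and 2.95 TPM in Si at 25°C beside 1.61, 2.81 and 2.12 TPM in Si at 22°C. The root markers did not all move with their sum. PHT1;4 had the widest gap, with Si means of 6.82 and 7.7 TPM at the lower and higher temperature beside CK means of 2.09 and 2.52 TPM. For GL2 the Si means were 4.47 and 3.12 TPM beside 2.2 and 1.29 TPM. CASP1 and MYB36 went the other way at low levels. Their Si means were 0.65 and 1.21 TPM for CASP1 and 0.13 and 0.30 TPM for MYB36, beside CK means of 0.80 and 1.91 TPM and of 0.54 and 0.70 TPM. The part of root tissue in the results was not tested. In bulk tissue a lower level can come from fewer cells of a type or from less RNA per cell, which cannot be told apart here.

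Several jasmonate genes that rose with the fungus at 22°C were no longer called at 25°C. Of the 13 JAZ repressors, 6 had a lower interaction, beside 5.36% of all genes, and the list had a median of -1.93. None had a higher one by limma, and none at an unadjusted p under 0.05, while 9 were lower at that p. JAZ1, JAZ2, JAZ6, JAZ7 and JAZ9 were higher in Si than in CK at 22°C and were not called at 25°C, while JAZ3 was not called at 22°C and was lower at 25°C. JAZ6 and JAZ3 were named after their values were seen, as they complete the 6. JAZ1 (AT1G19180, chromosome 1, 6621777 to 6623668, plus strand) stood at 15.9, 13.2 and 17.7 TPM in the CK samples and 92.7, 127 and 118 TPM in the Si samples at 22°C. At 25°C, the JAZ1 values were 14.7, 20.9 and 46.4 TPM in CK and 15.8, 32.2 and 51 TPM in Si. All Si samples lay above all CK samples at 22°C, and the groups overlapped at 25°C. The Si effect on JAZ1 was 2.77 at 22°C and 0.28 at 25°C, and its interaction was -2.50 ± 0.58 (SE, adjusted p = 0.016). The call for JAZ1, like that for JAZ6 (-1.69, adjusted p = 0.0067), was kept without any single sample.

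JAZ7 had the largest interaction of the family, -5.31 ± 1.37 (SE, adjusted p = 0.026). Its level went from 1.41, 4.13 and 6.54 TPM in CK to 49, 96.6 and 127 TPM in Si at 22°C. At 25°C, the JAZ7 values were 1.84, 5.88 and 16.5 TPM in CK and 0.09, 2.13 and 9.77 TPM in Si, with a wide spread in both groups. The call was lost without CK sample 1 or Si sample 2 or 3 at 22°C, and without CK sample 2 or 3 or Si sample 1 at 25°C, with adjusted p values up to 0.065. JAZ9 lost its call (-2.50, adjusted p = 0.02) without Si sample 1 at 25°C, at an adjusted p of 0.0531. JAZ2 (-2.27, adjusted p = 0.022) lost it without CK sample 3 at 25°C, Si sample 3 at 22°C or Si sample 1 at 25°C, at up to 0.059, and JAZ3 (-1.04, adjusted p = 0.043) in 11 of the 12 removals, all but that of Si sample 1 at 22°C, at up to 0.101. Over the 12 removals the list held between 2 and 9 lower calls, with 2 without Si sample 1 at 25°C and 3 without CK sample 3 at 25°C or Si sample 3 at 22°C, and its median stayed between -2.57 and -1.52. At 25°C the third sample was the highest of both arms, with mean list values of 3.04, 3.26 and 3.80 in CK and 2.70, 3.22 and 4.02 in Si on the log2 scale. At 22°C the CK means, 3.07, 2.99 and 3.14, lay below the Si means of 4.38, 5.09 and 5.13.

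MYC2, the bHLH factor that JAZ proteins repress, followed the same course. It stood at 5.27, 2.85 and 9.49 TPM in the CK samples and 48.3, 70.7 and 59.6 TPM in the Si samples at 22°C. At 25°C, the MYC2 values were 4.88, 11.9 and 27 TPM in CK and 5.28, 10.2 and 21.8 TPM in Si. The groups were separate at 22°C and overlapped at 25°C, and the interaction was -3.38 ± 0.86 (SE, adjusted p = 0.024). This call was lost without sample 2 of either group at 22°C, CK sample 3 at 25°C or Si sample 1 at 25°C, at adjusted p values up to 0.062. MYC2 overlaps AT1G32630 on the opposite strand, and whether the quantification used strand is not stated in the sources used here, so reads of such pairs may be shared. The same holds below wherever an overlap is named. MYC2 was the only 1 of 16 listed jasmonate signalling and response genes with a call (6.25%, beside 5.36% of all genes), and their median was -0.18.

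Both ends of jasmonate metabolism held lower interactions. Of 8 jasmonate catabolism genes, 4 had a lower interaction, beside 5.36% of all genes, with a median of -1.35. CYP94C1, which oxidizes jasmonoyl-isoleucine, stood at 1.4, 0.64 and 0.85 TPM in the CK samples and 8.3, 14.1 and 21.7 TPM in the Si samples at 22°C and, at 25°C, at 0.76, 1.39 and 2.69 TPM in CK and 0.95, 1.07 and 2.76 TPM in Si. The fungus thus went with a separate, higher group at 22°C and with overlapping values at 25°C, and the interaction was -2.93 ± 0.59 (SE, adjusted p = 0.008). CYP94B1, which carries out an earlier step of the same oxidation, had -2.12 (adjusted p = 0.0079), and AT5G05600, annotated as a 2-oxoglutarate-dependent oxygenase, had -1.70 (adjusted p = 0.0094). These 3 calls held without any single sample. ILL6, an amidohydrolase of the family that cleaves hormone conjugates, had -1.46 (adjusted p = 0.023) but lost it in 5 removals, of CK sample 2 and Si samples 2 and 3 at 22°C, and of CK sample 3 and Si sample 1 at 25°C, at up to 0.06. Among 16 jasmonate synthesis genes 2 were called lower (12.5%, beside 5.36% of all genes), with a median of -0.54. This count was 6 without Si sample 1 at 22°C and 1 without Si sample 2 at 22°C or Si sample 1 at 25°C. None was called higher by limma, with 1 higher and 7 lower at an unadjusted p under 0.05. Most synthesis genes kept a rise at 25°C. In Si 11 of the 16 were called higher than in CK at 22°C, and 10 higher and 2 lower at 25°C. Over all genes 47.4% and 47.8% were called higher. The median Si effect of the list was 1.11 at 22°C and 0.58 at 25°C. OPCL1, a CoA ligase of the peroxisomal steps, remained higher in Si at both temperatures (3.30 and 1.22), with an interaction of -2.08 (adjusted p = 0.021) that was lost without Si sample 2 at 22°C or Si sample 1 at 25°C, at up to 0.0521. The lipase-like AT1G02660 differed, with no call at 22°C (0.59) and a fall at 25°C (-2.32, interaction -2.91, adjusted p = 0.0028).

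Defence factors of several families shared this pattern in part. Of 16 ERF factors of groups VIII and IX, 3 had a lower interaction, beside 5.36% of all genes, with a median of -0.37. None was called higher by limma, with 1 at an unadjusted p under 0.05. The 3 became 1 in the fit of the 12 samples alone, 6 without CK sample 1 at 25°C and 1 without CK sample 1 or 2 at 22°C, CK sample 2 or 3 at 25°C, Si sample 2 or 3 at 22°C, or Si sample 1 or 2 at 25°C. ERF13 stood at 0.99, 0.37 and 1.11 TPM in the CK samples and 11.3, 7.73 and 7.05 TPM in the Si samples at 22°C. At 25°C, the ERF13 values were 0.1, 0.94 and 2.3 TPM in CK and 0.68, 1.48 and 1.79 TPM in Si. Separate groups at 22°C became overlapping ones at 25°C, with an interaction of -2.17 ± 0.49 (SE, adjusted p = 0.014) that held without any single sample but was no longer called with a pseudocount of 0.1 TPM (adjusted p = 0.118 by limma). ERF2 (-2.90, adjusted p = 0.029) and ERF6 (-3.44, adjusted p = 0.044) had larger interactions but kept their calls only without CK sample 3 at 22°C, CK sample 1 at 25°C or Si sample 3 at 25°C, and ERF2 also without Si sample 1 at 22°C. Their adjusted p values elsewhere reached 0.072 and 0.105. ORA59, which joins jasmonate and ethylene signals, was higher in Si at both temperatures, 2.68 at 22°C and 1.57 at 25°C. Its interaction of -1.11 (adjusted p = 0.028) was lost without CK sample 2 or Si sample 3 at 22°C, or without CK sample 3 or Si sample 1 or 2 at 25°C, at up to 0.072. HCHIB, a basic chitinase that ethylene and jasmonate induce, went the other way with 1.54 (adjusted p = 0.02). Its Si samples held 9.03, 6.59 and 7.02 TPM at the lower temperature and 20.6, 20.1 and 35.8 TPM at the higher one, and the call was lost without CK sample 2 at 22°C or at 25°C, at up to 0.0524. The jasmonate and ethylene defence list mostly kept its rise. In Si 7 of its 8 genes were called higher than in CK at 22°C and 7 at 25°C, beside 47.4% and 47.8% of all genes. It had 1 higher and 1 lower interaction (12.5% each, beside 4.37% and 5.36%), with a median of -0.75. Over the removals each of these counts was 0 or 1.

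Of the 54 WRKY factors tested, 6 were lower (11.1%) and 1 was higher (1.85%), beside 5.36% and 4.37% of all genes, with a median of -0.19. WRKY18, a regulator of basal defence, stood at 19.7, 23.7 and 19.7 TPM in the CK samples and 76.8, 95.7 and 139 TPM in the Si samples at 22°C. At 25°C, the WRKY18 values were 17.6, 17.2 and 35.4 TPM in CK and 27.1, 32.4 and 33.5 TPM in Si. Its interaction of -1.75 ± 0.33 (SE, adjusted p = 0.0058) held without any single sample. WRKY60, a close relative that forms complexes with WRKY18, was the 1 higher, with 0.83 (adjusted p = 0.011), at 8.59, 11.8 and 9.15 TPM in Si at 22°C against 15, 15.9 and 13.3 TPM in Si at 25°C. WRKY33, needed for camalexin production, had -2.44 (adjusted p = 0.036), a call kept only without CK sample 3 at 22°C, CK sample 1 at 25°C or Si sample 3 at 25°C and otherwise at an adjusted p of up to 0.084. The 6 lower calls became 1 without CK sample 1 at 22°C or CK sample 2 or 3 at 25°C, and 2 without CK sample 2 or Si sample 2 or 3 at 22°C or Si sample 1 at 25°C. All 11 ZAT and AZF zinc finger factors had interactions below 0 (median -0.85), and 2 were called, AZF3 (-1.10, adjusted p = 0.018) and AZF1 (-0.85, adjusted p = 0.0459). The call of AZF1 was lost in 9 removals. In the salicylate and N-hydroxypipecolate list, 2 of 20 genes were lower (10%) and 1 was higher (5%), beside 5.36% and 4.37% of all genes. The list as a whole had a median of 0.01, with 4 higher and 4 lower at an unadjusted p under 0.05. Those called lower were CBP60G (-1.43, adjusted p = 0.0058), which activates salicylate synthesis genes, and NPR3 (-1.13, adjusted p = 0.012), a salicylate receptor. Both kept their calls without any single sample. CYP707A3, which inactivates abscisic acid, also lost its rise: the Si level was 12.3, 12.4 and 17.8 TPM at 22°C against 1.3, 1.95 and 2.85 TPM at 25°C, with CK at 0.89, 0.94 and 1.5 and 0.5, 1.21 and 2.99 TPM. Its interaction was -2.51 ± 0.43 (SE, adjusted p = 0.0034).

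**Figure D2:**
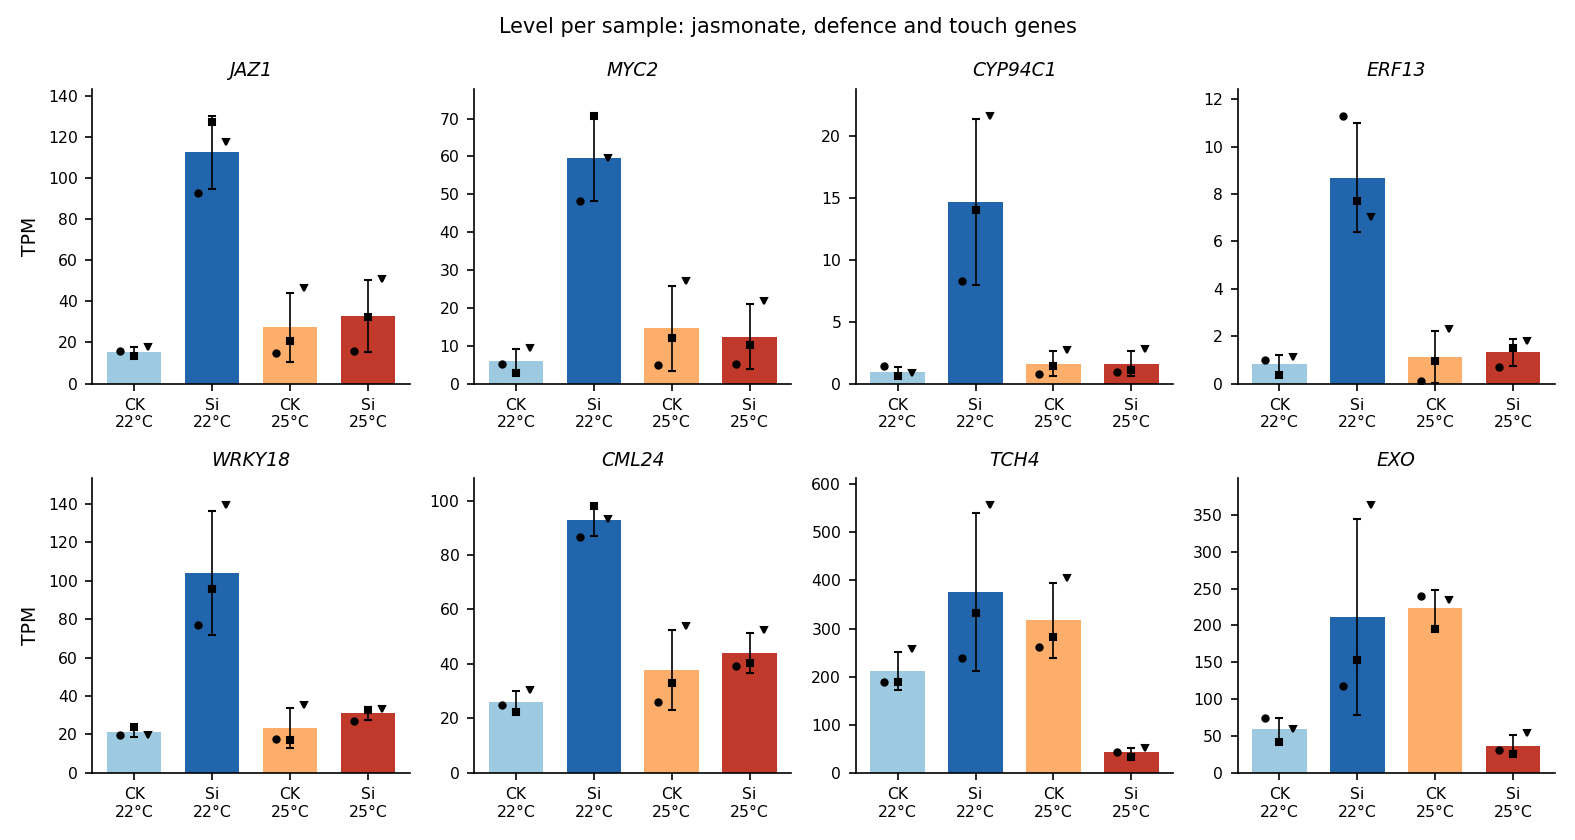
Level in TPM of 8 genes in each of the 12 samples (circle, replicate 1, square, replicate 2, triangle, replicate 3), with bars at the mean and error bars of 1 SD over 3 samples, from left to right CK and Si at 22°C and CK and Si at 25°C. JAZ1, MYC2, CYP94C1, ERF13, WRKY18 and CML24 were separate between Si and CK at 22°C and overlapped at 25°C, while TCH4 and EXO were lower in all Si than in all CK samples at 25°C.

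A few calcium-binding and touch-induced genes had lower interactions. Of 19 such genes, 4 were lower (21.1%), beside 5.36% of all genes, and 15 were not called, with a median of -0.20, and all 4 calls held without any single sample. None was called higher by limma, with 2 at an unadjusted p under 0.05. CML24, a calmodulin-like protein, stood at 24.9, 22.4 and 30.4 TPM in the CK samples and 86.8, 98 and 93.3 TPM in the Si samples at 22°C. At 25°C, the CML24 values were 25.8, 33.1 and 54 TPM in CK and 39.3, 40.4 and 52.6 TPM in Si. The groups did not overlap at 22°C and did at 25°C, and the interaction was -1.53 ± 0.30 (SE, adjusted p = 0.0066). TCH3, another calmodulin-like protein, was measured at 1088, 1314 and 1636 TPM in Si at 22°C against 173, 263 and 410.0 TPM in Si at 25°C, beside 349, 400.2 and 529 and 273, 441 and 767 TPM in CK (-2.43, adjusted p = 0.014). TCH3 overlaps AT2G09220 and AT2G41105, and CML24 overlaps AT5G37760, on the opposite strand. CML23 had -1.03 (adjusted p = 0.011).

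TCH4, a xyloglucan endotransglucosylase induced by touch, reversed. It stood at 188, 189 and 257 TPM in the CK samples and 238, 333 and 557 TPM in the Si samples at 22°C. At 25°C, the TCH4 values were 263, 283 and 406 TPM in CK and 42.4, 33.7 and 51.2 TPM in Si, so that every Si sample lay below every CK sample. The interaction was -3.62 ± 0.37 (SE, adjusted p = 1.7e-04). EXO and PHI-1, both phosphate-responsive 1 family proteins and EXO a brassinosteroid-induced promoter of leaf growth, behaved alike. EXO was at 74.2, 42.2 and 60.1 TPM in the CK samples and 118, 153 and 363 TPM in the Si samples at 22°C. At 25°C, the EXO values were 240.0, 195 and 234 TPM in CK and 30.8, 26.1 and 53.8 TPM in Si. Here both arms moved with temperature, with changes of 1.94 in CK and -2.38 in Si, and the interaction was -4.32 ± 0.49 (SE, adjusted p = 2.5e-04). PHI-1 was at 31.3, 29 and 37.8 TPM in the CK samples and 37.2, 49.9 and 68.5 TPM in the Si samples at 22°C. At 25°C, the PHI-1 values were 72.3, 72.4 and 81.2 TPM in CK and 2.4, 3.93 and 4.64 TPM in Si, which gave -4.68 ± 0.31 (SE, adjusted p = 2.0e-06). The calls of all 3 genes were kept without any single sample.

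The promoter of CML24 is shown with a motif found in it that was more frequent among lost or reduced rises than among all genes. The window runs from 250 bases before to 50 bases after the annotated start, read 5′ to 3′ on the strand of the gene from the TAIR10.1 assembly of RefSeq, and the genes whose promoters are printed were chosen after their values were seen. In CML24 (chr5:14999570-14999869, minus strand) the capitals mark 2 copies of a palindrome, each of which holds the CAMTA motif CGCGT once on either strand, so that 4 overlapping matches were counted.
CML24: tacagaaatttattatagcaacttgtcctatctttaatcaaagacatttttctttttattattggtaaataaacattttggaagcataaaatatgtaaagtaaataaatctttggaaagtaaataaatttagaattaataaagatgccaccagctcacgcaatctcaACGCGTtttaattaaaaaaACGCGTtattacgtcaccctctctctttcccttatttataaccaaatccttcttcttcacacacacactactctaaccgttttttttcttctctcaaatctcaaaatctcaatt
W-boxes (TTGACC or TTGACT, either strand), the motif that WRKY factors bind, were found in 32.5% of all 19760 promoters and in 45.5% of the 501 promoters of lost or reduced rises, and CGCGT, bound by calmodulin-binding transcription activators, in 9.56% and 15.8%. Genes with a higher interaction had them in 28.2% and 6.08%. The G-box CACGTG, which MYC2 can bind, was in 5 of 13 JAZ promoters beside 8.48% of all promoters and 9.78% of those of lost or reduced rises. A match shows only that these letters are present.

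Most of the sugar-starvation genes, already low with the fungus at 22°C, had a larger fall at 25°C. Of 29 genes repressed by sugar or induced in the dark, 19 had a lower interaction, beside 5.36% of all genes, 26 lay below 0 and the median was -1.21. None was called higher by limma, with 1 at an unadjusted p under 0.05. Of the 29, 22 were called lower in Si at 22°C and 26 at 25°C, beside 10.7% and 13.5% of all genes. The count stayed between 18 and 21 when single samples were left out. ASN1, an asparagine synthetase that stores nitrogen when carbon is short, stood at 1541, 1808 and 2104 TPM in the CK samples and 68.8, 126 and 215 TPM in the Si samples at 22°C. At 25°C, the ASN1 values were 2006, 2170.0 and 1761 TPM in CK and 10.8, 12.1 and 18.6 TPM in Si. Si and CK were separate at both temperatures and the Si values at 25°C lay below all those at 22°C, while CK overlapped between temperatures. The Si effect went from -3.86 to -7.09, and the interaction was -3.23 ± 0.41 (SE, adjusted p = 5.8e-04).

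SEN1, a senescence- and darkness-induced gene and 1 of the 5 most abundant with a lower interaction, was at 5232, 6603 and 5591 TPM in the CK samples and 590.2, 948 and 1073 TPM in the Si samples at 22°C. At 25°C, the SEN1 values were 5791, 5642 and 4823 TPM in CK and 97.2, 162 and 211 TPM in Si. The same order of groups held as in ASN1, with an interaction of -2.39 ± 0.39 (SE, adjusted p = 0.0028). GAT1_2.1, a class I glutamine amidotransferase, was at 119, 157 and 169 TPM in the CK samples and 6.82, 16.4 and 15.3 TPM in the Si samples at 22°C. At 25°C, the GAT1_2.1 values were 142, 144 and 133 TPM in CK and 0.29, 0.97 and 1.86 TPM in Si, giving -2.68 ± 0.45 (SE, adjusted p = 0.0031). It overlaps AT1G05147 and AT1G15030 on the opposite strand. MIOX2, which opens myo-inositol to glucuronic acid, had little spread, with 83.1, 78.7 and 105 TPM in Si at 22°C against 22.5, 20.3 and 19.8 TPM in Si at 25°C beside 195, 214 and 216 and 236, 253 and 252 TPM in CK, and an interaction of -2.28 ± 0.15 (SE, adjusted p = 2.0e-06). DYL1 and AT2G33830, both dormancy-associated proteins and among the 5 most abundant called genes in this direction, had -0.85 (adjusted p = 3.1e-04) and -0.56 (adjusted p = 0.013). All of these calls held without any single sample.

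Other members were named after their values were seen. UMAMIT33, annotated as a nodulin-like EamA transporter, had -2.05 (adjusted p = 0.009), and GDH2, a glutamate dehydrogenase, had -1.54 (adjusted p = 0.0011). BT2, a BTB and TAZ domain protein, had no Si effect called at 22°C (0.36) and a fall at 25°C (-1.53), and its interaction of -1.89 kept its call only without Si sample 1 at 22°C or Si sample 3 at 25°C, at an adjusted p of up to 0.118 elsewhere. BZIP53, a factor that itself activates ASN1 and proline dehydrogenase, had a Si effect of 1.28 at 22°C and 0.07 at 25°C, with an interaction of -1.21. These values of BZIP53 are given without a call and without the removals. AT2G20670, a DUF506 protein outside the list, was at 250.1, 420.3 and 487 TPM in Si at 22°C against 9.71, 43 and 105 TPM in Si at 25°C. Its interaction of -3.54 (adjusted p = 0.033) was kept only without CK sample 3 or Si sample 1 at 22°C, CK sample 1 at 25°C or Si sample 3 at 25°C, and reached 0.071 elsewhere.

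Branched-chain amino acid catabolism, a mitochondrial route that feeds respiration when sugar is short, went with them. Of 20 genes, 9 were lower, beside 5.36% of all genes, and 18 lay below 0, none was called higher by limma or at an unadjusted p under 0.05, with a median of -0.33 and between 8 and 10 lower calls over the removals. DIN4 is in both lists. BCAT-2, the aminotransferase of the first step, was at 368, 518 and 549 TPM in the CK samples and 45.5, 85.8 and 103 TPM in the Si samples at 22°C. At 25°C, the BCAT-2 values were 448, 459.7 and 421 TPM in CK and 17, 22.1 and 21.8 TPM in Si. Separate at both temperatures, the groups were further apart at 25°C, with an interaction of -1.73 ± 0.34 (SE, adjusted p = 0.0067). MCCA, a subunit of methylcrotonyl-CoA carboxylase in leucine breakdown, had 52.3, 76.2 and 105 TPM in Si at 22°C against 27, 25.6 and 28.4 TPM at 25°C, with 301, 351 and 381 and 378, 368 and 329.9 TPM in CK and an interaction of -1.50 ± 0.24 (SE, adjusted p = 0.0025). IVD, isovaleryl-CoA dehydrogenase and named after its value was seen, had -0.99 (adjusted p = 0.01), and AT1G21400, a thiamin diphosphate-binding protein, -1.20 (adjusted p = 0.012). ProDH1, which starts proline breakdown, was at 360.1, 366 and 462 TPM in Si at 22°C against 139.7, 159 and 150.4 TPM at 25°C (-1.30, adjusted p = 1.7e-04). BCAT-2 overlaps AT1G10090, and MCCA overlaps AT1G03100 and AT1G04157, on the opposite strand. Of 21 sugar transporters and invertases 5 were lower and 2 higher, with a median of 0.01. STP1, a monosaccharide importer that sugar represses, had the largest change, from 296, 403 and 563 TPM in Si at 22°C to 106, 109 and 154 TPM at 25°C, beside 748, 846 and 1033 and 905, 992 and 920.0 TPM in CK. The interaction of STP1, which overlaps AT1G11270 on the opposite strand, was -1.85 ± 0.28 (SE, adjusted p = 0.0017).

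**Figure D3:**
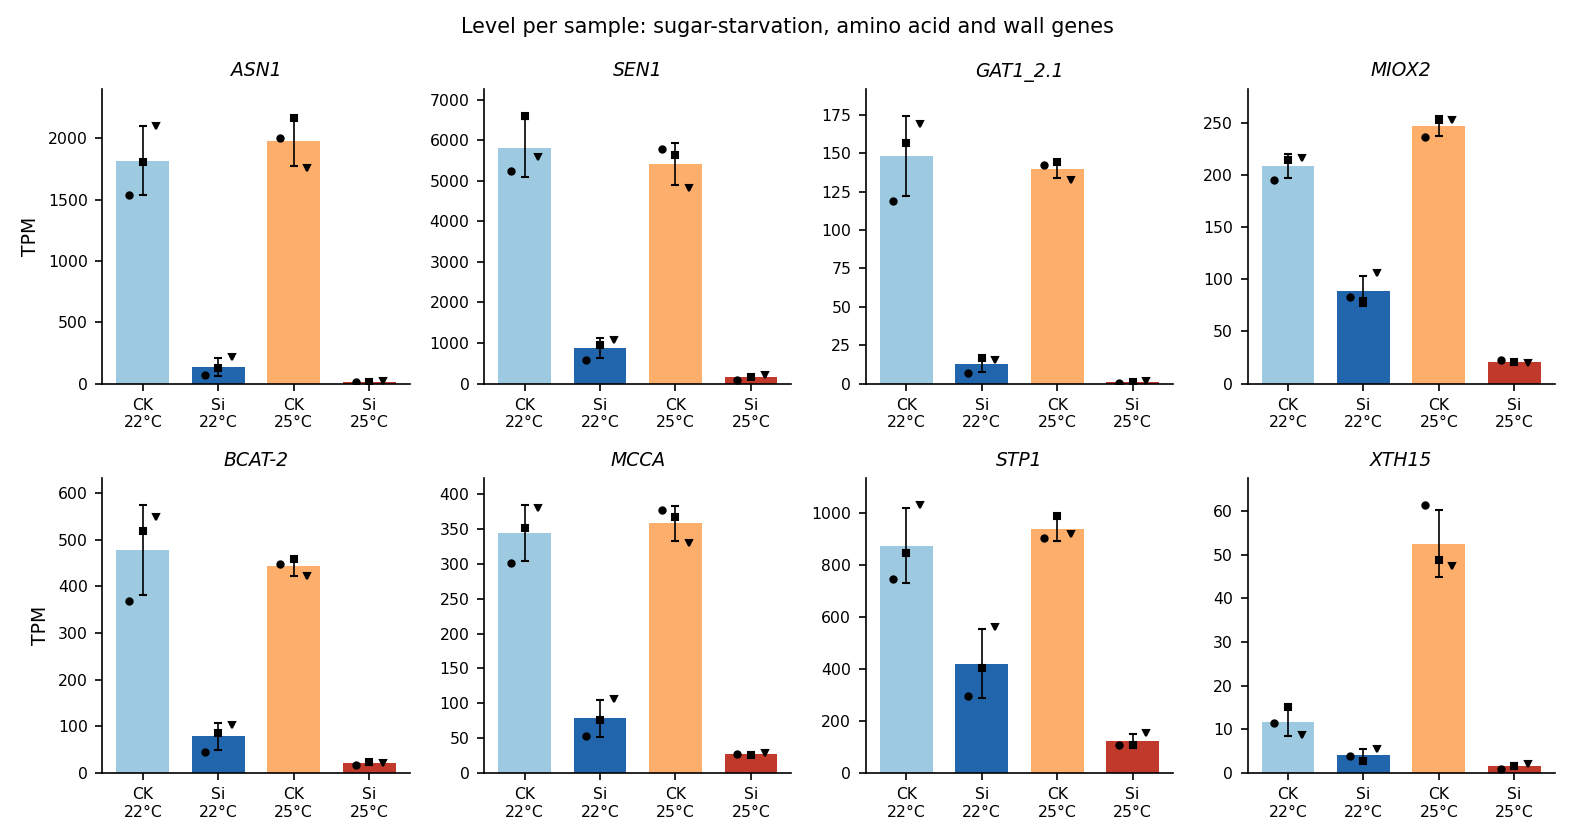
Level in TPM of 8 genes in each of the 12 samples (circle, replicate 1, square, replicate 2, triangle, replicate 3), with bars at the mean and error bars of 1 SD over 3 samples. In all 8 the Si samples lay below the CK samples at both temperatures and were lower at 25°C than at 22°C, and in XTH15 the CK samples were higher at 25°C than at 22°C.

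The promoter of GAT1_2.1 (chr1:5181353-5181652, minus strand) is shown for the sugar-repression element TATCCA, which holds the core of sites bound by MYB factors in sugar-starved cereal cells. Its 2 copies, in capitals, start 216 and 146 bases before the annotated start.
GAT1_2.1: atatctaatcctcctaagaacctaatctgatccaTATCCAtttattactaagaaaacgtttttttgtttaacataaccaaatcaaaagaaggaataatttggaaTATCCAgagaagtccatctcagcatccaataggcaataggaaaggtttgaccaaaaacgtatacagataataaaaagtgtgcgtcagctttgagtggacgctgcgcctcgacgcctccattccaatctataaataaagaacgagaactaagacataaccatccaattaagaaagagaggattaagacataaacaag
TATCCA was in 16.8% of all promoters, in 25.8% of the 454 promoters of gained or deepened falls, and in 10 of 29 sugar-starvation and 8 of 20 branched-chain catabolism promoters. It was in 16.3% of the promoters of genes with a higher interaction.

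Cell wall loosening genes split by family. Of 38 expansins and xyloglucan transferases (XTH), 14 were lower and 7 higher, a larger share in both directions than the 5.36% and 4.37% of all genes, and the list median of -0.11 lay between them. Of 22 xyloglucan transferases 13 were lower and 2 higher, and of 16 expansins and expansin-like genes 5 were higher and 1, EXLA1, was lower. The split by family was made after the values were seen. XTH31 rose only at 25°C: it was at 8.08, 7.43 and 7.24 TPM in the CK samples and 10.3, 6.02 and 7.56 TPM in the Si samples at 22°C. At 25°C, the XTH31 values were 9.13, 6.61 and 8.85 TPM in CK and 51.5, 49.3 and 44.6 TPM in Si. Si and CK overlapped at 22°C and were separate at 25°C, with an interaction of 2.40 ± 0.25 (SE, adjusted p = 1.7e-04). EXPA1, an alpha-expansin, was at 78.6, 53.5 and 56.4 TPM in the CK samples and 113, 73 and 39.6 TPM in the Si samples at 22°C. At 25°C, the EXPA1 values were 51.9, 45 and 45.2 TPM in CK and 240.0, 196 and 150.2 TPM in Si, giving 1.85 ± 0.40 (SE, adjusted p = 0.011). EXPA15 (1.74, adjusted p = 0.0047) and EXPA4 (1.37, adjusted p = 0.0015), both named after their values were seen, were higher in Si at both temperatures and more so at 25°C. Their Si levels at 25°C were 16.5, 12.6 and 7.96 TPM and 25.8, 23.7 and 22 TPM.

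The XTH genes with lower interactions differed from the sugar-starvation genes in the CK arm, where several rose with temperature. XTH15 was at 11.4, 15.1 and 8.59 TPM in the CK samples and 3.92, 2.72 and 5.46 TPM in the Si samples at 22°C. At 25°C, the XTH15 values were 61.4, 48.9 and 47.4 TPM in CK and 0.87, 1.64 and 2.09 TPM in Si. All CK samples were higher and all Si samples lower at 25°C than at 22°C, and the interaction was -3.08 ± 0.45 (SE, adjusted p = 0.0015). XTH25 (-2.59, adjusted p = 1.7e-04), XTH23 (-2.49, adjusted p = 5.8e-04) and, named after their values were seen, XTH6 (-2.20, adjusted p = 1.8e-04) and XTH18 (-2.13, adjusted p = 0.0036) also had higher CK levels at 25°C, by 0.78, 1.69, 1.09 and 1.51. GASA1, a gibberellin-induced gene, did the same on a higher level. It rose in CK from 1851, 1349 and 1549.5 TPM to 4392, 3592 and 3970.0 TPM, while the Si samples, at 998, 603 and 569 TPM and then 457, 723 and 515 TPM, overlapped (-1.67, adjusted p = 0.012). GA3OX1, which makes active gibberellin, rose only in Si at 25°C, at 4.09, 3.49 and 3.2 TPM beside 0.24, 0.4 and 0.27 TPM in CK, with 0.71, 0.36 and 0.3 TPM in the CK samples and 1.07, 0.34 and 0.88 TPM in the Si samples at 22°C (1.55, adjusted p = 0.0031). TAA1, an aminotransferase of auxin synthesis, had 1.35 (adjusted p = 0.0086), with 34.7, 31.5 and 23.9 TPM in Si and 16.1, 14.2 and 13.1 TPM in CK at 25°C. The calls of all genes given with an interaction in these paragraphs on the cell wall and on growth hormones held without any single sample.

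Part of the cytosolic ribosomal protein genes had higher interactions, 2 of them above 1 on the log2 scale. Of 111 cytosolic ribosomal protein genes, 29 were higher, beside 4.37% of all genes, 104 lay above 0, and the median was 0.31 beside 0.02 over all genes. None was called lower by limma or at an unadjusted p under 0.05, at which 69 were higher. The Si effect had a median of 0.31 at 22°C and 0.62 at 25°C, against 0.26 in all genes at both. Both arms took part, as the median of the list was -0.14 in CK and 0.17 in Si from 22 to 25°C. Mean list values at 22°C were 6.43, 6.54 and 6.37 for the CK samples against 6.76, 6.60 and 6.80 for the Si samples. The gap was wider at 25°C, with 6.29, 6.25 and 6.38 against 6.95, 6.85 and 6.90. The fit of the 12 samples alone called 16 of the 111 higher. Between 16 and 38 were called higher when a single sample was left out, and the count was 16 without CK sample 2 or Si sample 2 at 22°C, 17 without Si sample 1 at 25°C and 18 without CK sample 2 at 25°C. AT3G55750, of the L35Ae family, was at 107, 123 and 111 TPM in the CK samples and 180.2, 149 and 184 TPM in the Si samples at 22°C. At 25°C, the AT3G55750 values were 83.3, 74.2 and 87.8 TPM in CK and 199.7, 202 and 218 TPM in Si, which gave 0.75 ± 0.13 (SE, adjusted p = 0.0032). AT1G54217, of the L18ae family, had 1.15 (adjusted p = 0.0037). AT2G40205 (1.07, adjusted p = 0.0015) and AT3G11120 (0.77, adjusted p = 0.0023) both encode the very short protein L41, so reads may be split between them, and AT2G40205 overlaps AT2G40200 on the opposite strand.

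Ribosome biogenesis genes, 31 in number, had a median of 0.11 and 1 call (3.23%), beside 4.37% of all genes. It was FIB1, a fibrillarin that methylates ribosomal RNA, at 118, 119.8 and 105 TPM in the CK samples and 137, 121 and 137 TPM in the Si samples at 22°C. At 25°C, the FIB1 values were 101, 95 and 107 TPM in CK and 162, 155 and 162 TPM in Si, separate from CK at both temperatures (0.46 ± 0.10, SE, adjusted p = 0.014). FIB1 overlaps the small nucleolar RNA U60.1F on the same strand. Its promoter (chr5:21293897-21294196, plus strand) is shown for the telo-box AAACCCTA, a motif common in promoters of the translation machinery, whose 2 copies, in capitals, start 207 bases before and at base 4 after the annotated start.
FIB1: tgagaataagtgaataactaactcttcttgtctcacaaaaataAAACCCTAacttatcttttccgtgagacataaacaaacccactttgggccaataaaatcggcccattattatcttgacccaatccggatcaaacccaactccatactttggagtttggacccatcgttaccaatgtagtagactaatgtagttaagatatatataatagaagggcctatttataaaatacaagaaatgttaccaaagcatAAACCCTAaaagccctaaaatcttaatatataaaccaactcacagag
The telo-box was in 5.5% of all promoters, in 9.98% of the 872 with a higher interaction and 2.53% of the 1069 with a lower one, in 48 of 111 ribosomal protein and in 17 of 31 ribosome biogenesis promoters.

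Replication genes mostly lay above 0, with few calls. All 19 genes of the pre-replicative complex, which licenses origins, lay above 0 (median 0.44) and 2 were called (beside 4.37% of all genes), or 4 without CK sample 3 at 22°C. MCM5, a helicase subunit, was at 2.54, 2.71 and 2.31 TPM in the CK samples and 8.13, 6.99 and 8.29 TPM in the Si samples at 22°C. At 25°C, the MCM5 values were 1.92, 2.3 and 2.15 TPM in CK and 10.9, 10.2 and 10.9 TPM in Si (0.58 ± 0.11, SE, adjusted p = 0.006). MCM7 had 0.65 (adjusted p = 0.011) and overlaps STP7 on the opposite strand and AT4G02055 on the same one. MCM2 (0.69, adjusted p = 0.0502), MCM4 (0.40, adjusted p = 0.103) and ORC2 (0.52, adjusted p = 0.112) did not pass the test for the interaction. Of 28 replication fork genes 5 were higher (17.9%, beside 4.37% of all genes, median 0.28), and 3 without CK sample 1 at 22°C, CK sample 2 at 25°C, Si sample 2 or 3 at 22°C, or Si sample 1 or 3 at 25°C. Neither list had a gene lower by limma or at an unadjusted p under 0.05. PCNA2, a sliding clamp subunit, was at 19.2, 19.1 and 16.8 TPM in Si at 22°C against 24.9, 26.8 and 26.6 TPM at 25°C beside 12.9, 17.9 and 16.3 and 12.3, 11 and 10.4 TPM in CK (0.92 ± 0.17, SE, adjusted p = 0.0044), and POLA2, of DNA polymerase alpha, had 0.79 (adjusted p = 0.012). The largest called interactions of the list were those of RPA70D, a subunit of a single-stranded DNA-binding protein, with 0.94 (adjusted p = 0.039), and PCNA1, with 0.93 (adjusted p = 0.0481). Their calls were lost in 10 and 8 of the 12 removals and in 3 and 6 of the other alternatives. PCNA2 overlaps ENOC on the opposite strand. The E2F site (TTTCCCGC or TTTGGCGC) was in 9 of the 19 and 10 of the 28 promoters, beside 1.28% of all promoters and 1.61% of those with a higher interaction.

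Of 39 histone genes 10 were higher (25.6%) and 2 lower (5.13%), beside 4.37% and 5.36% of all genes (median 0.35), and 23 were higher at an unadjusted p under 0.05. The count of 10 became 5 in the fit of the 12 samples alone, 3 without CK sample 2 or Si sample 3 at 22°C or Si sample 1 at 25°C, 4 without CK sample 2 at 25°C, 6 without CK sample 3 at 25°C and 17 without CK sample 3 at 22°C. AT5G65360, a histone H3 gene, was at 73, 69.8 and 60.9 TPM in Si at 22°C against 116, 100.5 and 99 TPM at 25°C beside 35.8, 39.4 and 27.4 and 32.1, 30.8 and 29.3 TPM in CK (0.76, adjusted p = 0.015). Copies of this gene encode the same protein, so the share of each is uncertain. HIS1-3, a linker histone induced by drought, went the other way, with 24.3, 43.7 and 25.1 TPM in Si at 22°C against 12.3, 10.6 and 14.8 TPM at 25°C (-1.14, adjusted p = 0.014). Of 63 cyclins, kinases and mitotic genes 1 was higher, CDKB1;1 (0.98, adjusted p = 0.017), and 1 lower, CCS52A1 (-0.50, adjusted p = 0.041), 1.59% in each direction and below the 4.37% and 5.36% of all genes, with a median of 0.15. CCS52A1 lost its call in 10 of the 12 removals and was named after its value was seen, and CDKB1;1 overlaps AT3G54190 on the opposite strand.

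Some cytokinin response genes had higher interactions, 6 of 23, beside 4.37% of all genes, with a median of 0.42. None was called lower by limma, with 3 at an unadjusted p under 0.05. ARR4, a type-A response regulator that cytokinin induces, was at 71, 80.8 and 59.5 TPM in the CK samples and 49.5, 42.9 and 40 TPM in the Si samples at 22°C. At 25°C, the ARR4 values were 51.8, 45.1 and 47.3 TPM in CK and 90.1, 78.7 and 75.1 TPM in Si. Si lay below CK in all samples at 22°C and above it in all samples at 25°C, and the interaction was 1.40 ± 0.14 (SE, adjusted p = 1.7e-04). ARR9 had 0.84 (adjusted p = 0.0079) and CRF2, a cytokinin response factor, 1.14 (adjusted p = 0.013), with Si at 16.2, 11.4 and 9.88 TPM and CK at 4.46, 3.38 and 2.93 TPM at 25°C. ARR7 (1.30, adjusted p = 0.033) lost its call in 8 removals. ARR9 overlaps AT3G08825 on the opposite strand.

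In the phenylpropanoid and flavonoid list 8 of 25 genes were higher (32%, beside 4.37% of all genes, median 0.43). None was lower by limma or at an unadjusted p under 0.05. The 8 became 4 in the fit of the 12 samples alone or without Si sample 1 at 25°C, and 5 without CK sample 1 or Si sample 3 at 22°C, CK sample 1 or 3 at 25°C, or Si sample 2 at 25°C. TT4, chalcone synthase, the first enzyme of flavonoid synthesis, was at 1.53, 0.99 and 1.46 TPM in the CK samples and 2.59, 3.01 and 2.11 TPM in the Si samples at 22°C. At 25°C, the TT4 values were 1.04, 0.94 and 0.68 TPM in CK and 7.36, 5.1 and 8.06 TPM in Si. The groups were separate at both temperatures and further apart at 25°C (1.42 ± 0.23, SE, adjusted p = 0.0024). MYB90, an activator of anthocyanin genes, was at 6.13, 2.98 and 4.5 TPM in Si at 22°C against 23.3, 25.4 and 16.8 TPM at 25°C beside 0.38, 0.12 and 0.38 and 0.76, 1.02 and 1.32 TPM in CK (1.41, adjusted p = 0.015). With a smaller pseudocount, 0.1 or 0.5 TPM, MYB90 was no longer called. FAH1, a hydroxylase of lignin and sinapate synthesis, had 0.77 (adjusted p = 0.0058). Aliphatic glucosinolate synthesis had 4 of 28 genes higher (14.3%, median 0.30), with 11 higher and none lower at an unadjusted p under 0.05, where limma also called none lower. The 4 became 7 without CK sample 3 at 25°C and 2 without CK sample 1 or Si sample 1 or 3 at 22°C, CK sample 1 or 2 at 25°C, or any Si sample at 25°C. At each temperature 27 of the 28 genes were higher in Si, beside 47.4% and 47.8% of all genes. Its largest interaction was that of MAM3, a chain elongation enzyme, with 1.03 (adjusted p = 0.039), a call that was lost in 8 removals. In the indole glucosinolate list the median was -0.08. MYB51, its regulator, was lower with -1.32 (adjusted p = 0.008), from 69.3, 83.6 and 78.3 TPM in Si at 22°C to 36.8, 41.1 and 44.6 TPM at 25°C.

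**Figure D4:**
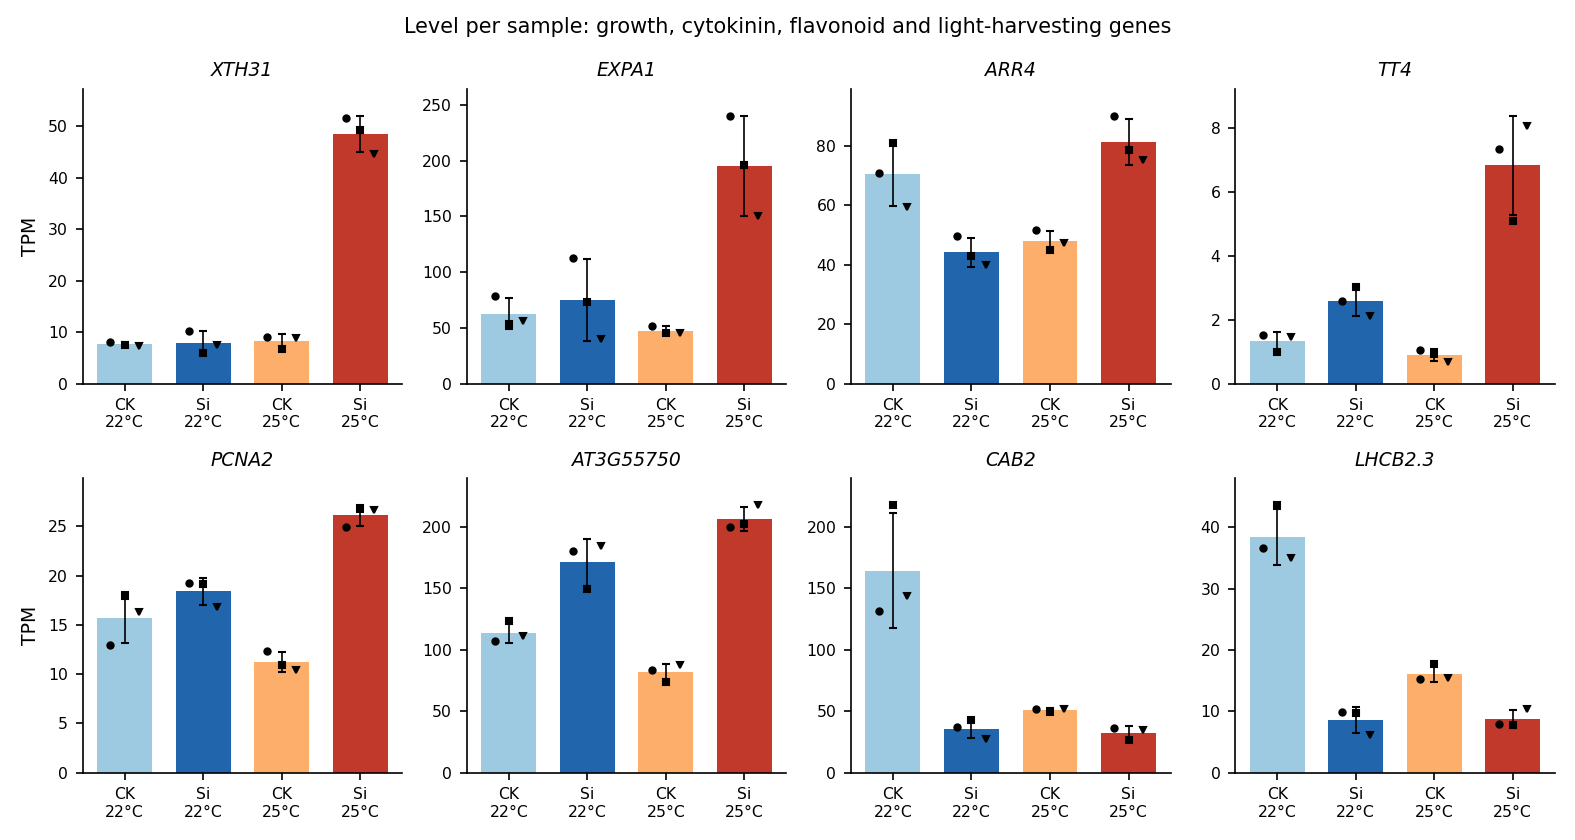
Level in TPM of 8 genes with a higher interaction in each of the 12 samples (circle, replicate 1, square, replicate 2, triangle, replicate 3), with bars at the mean and error bars of 1 SD over 3 samples. XTH31 and EXPA1 were separate between Si and CK only at 25°C, and in CAB2 and LHCB2.3 the CK samples moved down between temperatures while the Si samples overlapped.

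Of 21 light-harvesting genes 9 were higher and 1 lower, beside 4.37% and 5.36% of all genes, and the median was 0.21, with 7 below 0. The fit of the 12 samples alone called 6 higher. In Si 17 of the 21 were lower than in CK at 22°C and 17 at 25°C, beside 10.7% and 13.5% of all genes. CAB2, a chlorophyll a/b-binding protein, was at 131, 218 and 144 TPM in the CK samples and 37.1, 43 and 27.6 TPM in the Si samples at 22°C. At 25°C, the CAB2 values were 52, 49.6 and 52.1 TPM in CK and 36.4, 26.6 and 35.1 TPM in Si. Si lay below CK at both temperatures, CK was lower at 25°C (-1.63) and Si overlapped between temperatures, and the interaction was 1.50 ± 0.26 (SE, adjusted p = 0.0034). LHCB2.3 was at 36.7, 43.6 and 34.9 TPM in CK at 22°C and 15.3, 17.8 and 15.4 TPM at 25°C, with Si at 9.83, 9.8 and 6.16 and 7.96, 7.79 and 10.4 TPM (1.23 ± 0.29, SE, adjusted p = 0.016). LHCB2.1 had 1.07 (adjusted p = 0.013). CAB2 has near-identical neighbours in CAB1 and CAB3, and the LHCB2 genes are alike too, so reads may have been split among them. The exception was LHB1B1, 1 of the most abundant genes called lower, with 4966, 5229 and 4161 TPM in the CK samples and 805, 1194 and 1043 TPM in the Si samples at 22°C. At 25°C, the LHB1B1 values were 3087, 3363 and 3017 TPM in CK and 197, 303 and 182 TPM in Si, so that its fall deepened (-1.58 ± 0.27, SE, adjusted p = 0.0032). It too has a close copy, LHB1B2.

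The most abundant genes with a higher interaction were of the same machinery, with small values: PSAF (0.32, adjusted p = 0.017), PSAK (0.36, adjusted p = 0.017) and PSBW (0.26, adjusted p = 0.016), subunits of the photosystems, and LHCA4 (0.45, adjusted p = 0.036) and LHCB5 (0.25, adjusted p = 0.045). The calls of LHCA4 and LHCB5 were lost in 7 and 10 removals, and those of PSBW and of these 2 under median-of-ratios scaling. PETM, of the cytochrome b6f complex, was called lower (-0.25, adjusted p = 0.043) but lost its call in 10 removals. Over 37 photosystem and electron transport genes 5 were higher (13.5%) and 2 lower (5.41%), beside 4.37% and 5.36% of all genes, with a median of 0.06. The higher count was 3 under median-of-ratios scaling and 9 under quantile normalization, and lay between 3 and 5 over the removals.

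The largest interactions upward among genes that met the conditions for naming included genes of no common list. The conditions were a mean of at least 5 TPM in a group, not at 0 throughout a group, and at least 200 bases in length. The largest called interaction upward among all genes, 6.79, was that of a gene outside these conditions. LURP1, which is induced in defence against oomycetes, had 3.66 (adjusted p = 0.035), with 5.83, 42 and 6.73 TPM in the CK samples and 4.94, 9.61 and 7.04 TPM in the Si samples at 22°C. At 25°C, the LURP1 values were 1.23, 1.46 and 3.34 TPM in CK and 13.4, 32.4 and 21.4 TPM in Si. CK sample 2 stood far above its group at 22°C, and the call was kept only without CK sample 1 or 3 at 22°C, CK sample 3 at 25°C or Si sample 1 at 25°C, at an adjusted p of up to 0.077 elsewhere. AT2G25510, an uncharacterized protein, was at 104, 203 and 47.5 TPM in the CK samples and 125, 133 and 187 TPM in the Si samples at 22°C. At 25°C, the AT2G25510 values were 18.5, 23.2 and 33.9 TPM in CK and 245, 323 and 335 TPM in Si (3.02, adjusted p = 0.027). CK was lower at 25°C in all samples, and the call was lost without sample 2 of either arm at 22°C, CK sample 1 or 2 at 25°C or Si sample 2 or 3 at 25°C, at up to 0.066. AT4G22513, a lipid-transfer-like protein of a tandem cluster that overlaps AT4G22510 on the opposite strand, had 2.24 (adjusted p = 0.0058), and AT4G16880, a leucine-rich repeat protein, had 2.23 (adjusted p = 0.0082). AT4G29030, a putative membrane lipoprotein, was at 1.81, 1.42 and 1.33 TPM in the CK samples and 13.8, 13.5 and 13.9 TPM in the Si samples at 22°C. At 25°C, the AT4G29030 values were 0.3, 0.8 and 0.69 TPM in CK and 31.5, 27.8 and 37.5 TPM in Si (1.83 ± 0.28, SE, adjusted p = 0.0019). These last 3 calls were kept without any single sample.

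WAK1, a wall-associated kinase, had 2.15 (adjusted p = 0.039), a call kept only without CK sample 3 at 22°C and at up to 0.084 otherwise. ADT6, an arogenate dehydratase of phenylalanine synthesis, had 2.04 (adjusted p = 0.036), lost in 8 removals at up to 0.086 and kept without CK sample 1 or Si sample 1 or 2 at 22°C or Si sample 3 at 25°C. HSP70 was at 24.2, 10.1 and 8.06 TPM in the CK samples and 24.2, 13.7 and 7.31 TPM in the Si samples at 22°C. At 25°C, the HSP70 values were 14.1, 13 and 11 TPM in CK and 54.8, 60.7 and 43.8 TPM in Si. Its interaction of 1.88 (adjusted p = 0.029) was lost without CK sample 1 or Si sample 2 or 3 at 22°C, or without CK sample 2 or 3 or Si sample 1 or 2 at 25°C, at up to 0.064. The 32 heat shock proteins and factors as a list did not lean either way, with a median of 0.03. The list had 2 higher (6.25%) and 3 lower calls (9.38%), beside 4.37% and 5.36% of all genes.

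Of 820 long non-coding RNAs tested, 22 (2.68%) were lower and 2 (0.244%) higher, beside 5.57% and 4.62% of 18687 protein-coding genes. The largest interaction among the genes named here was that of AT2G08665, an RNA with no annotated product that lies opposite LHB1B2 and overlaps RWA3 on the same strand. It was at 1221, 8883 and 1078 TPM in the CK samples and 224, 1127 and 635 TPM in the Si samples at 22°C. At 25°C, the AT2G08665 values were 897, 174 and 1612 TPM in CK and 1.02, 0 and 0 TPM in Si. CK sample 2 at 22°C was far above the other samples, Si at 25°C was listed at or near 0, and the interaction was -6.91 ± 1.15 (SE, adjusted p = 0.0028), kept without any single sample. Its reads and those of its neighbours cannot be told apart in this table. AT5G03615, another RNA, was at 48.9, 71.9 and 136 TPM in Si at 22°C against 3.48, 5.46 and 10.4 TPM at 25°C beside 152, 207 and 231 and 197, 219 and 213 TPM in CK (-3.63, adjusted p = 0.0016). AT4G03845, an RNA opposite PYL7, had -3.38 (adjusted p = 0.018) at low levels, 0, 1.01 and 0 TPM in CK against 3.7, 3.44 and 3.11 TPM in Si at 22°C, and 2.47, 1.15 and 11.7 TPM against 0, 0.85 and 0.92 TPM at 25°C.

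The lists of thermomorphogenesis, clock, hypoxia, auxin and Calvin-Benson cycle genes had calls in shares from 0% to 17.2%, beside 4.37% higher and 5.36% lower over all genes. The cell wall list given above, which warm temperature also touches, had larger shares, 18.4% higher and 36.8% lower. PIF4, the main factor of thermomorphogenesis, was lower in Si at both temperatures (-0.74 and -1.14) and had an interaction of -0.41 (adjusted p = 0.067), not called, and 2 of the 24 genes of its list were higher (8.33%, median 0.02). None of these was lower by limma, with 4 at an unadjusted p under 0.05, and the 2 became 0 or 1 without any sample other than Si sample 1 at 22°C. Of 29 clock genes 5 were lower (17.2%), among them PRR7 (-0.47, adjusted p = 0.014), although the median was 0.15, with between 2 and 5 over the removals, and none was higher, with 3 at an unadjusted p under 0.05. None of 15 hypoxia and fermentation genes was called by limma (median 0.16), with 3 higher at an unadjusted p under 0.05 and 2 under quantile normalization. The Aux/IAA, GH3 and YUC list had 3 higher (8.57%) and 4 lower (11.4%) of 35, and SAUR genes 1 higher and 3 lower of 61, with medians of -0.08 and -0.05. Calvin-Benson cycle genes had 1 higher and 1 lower of 35 (median -0.07).

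**Figure D5:**
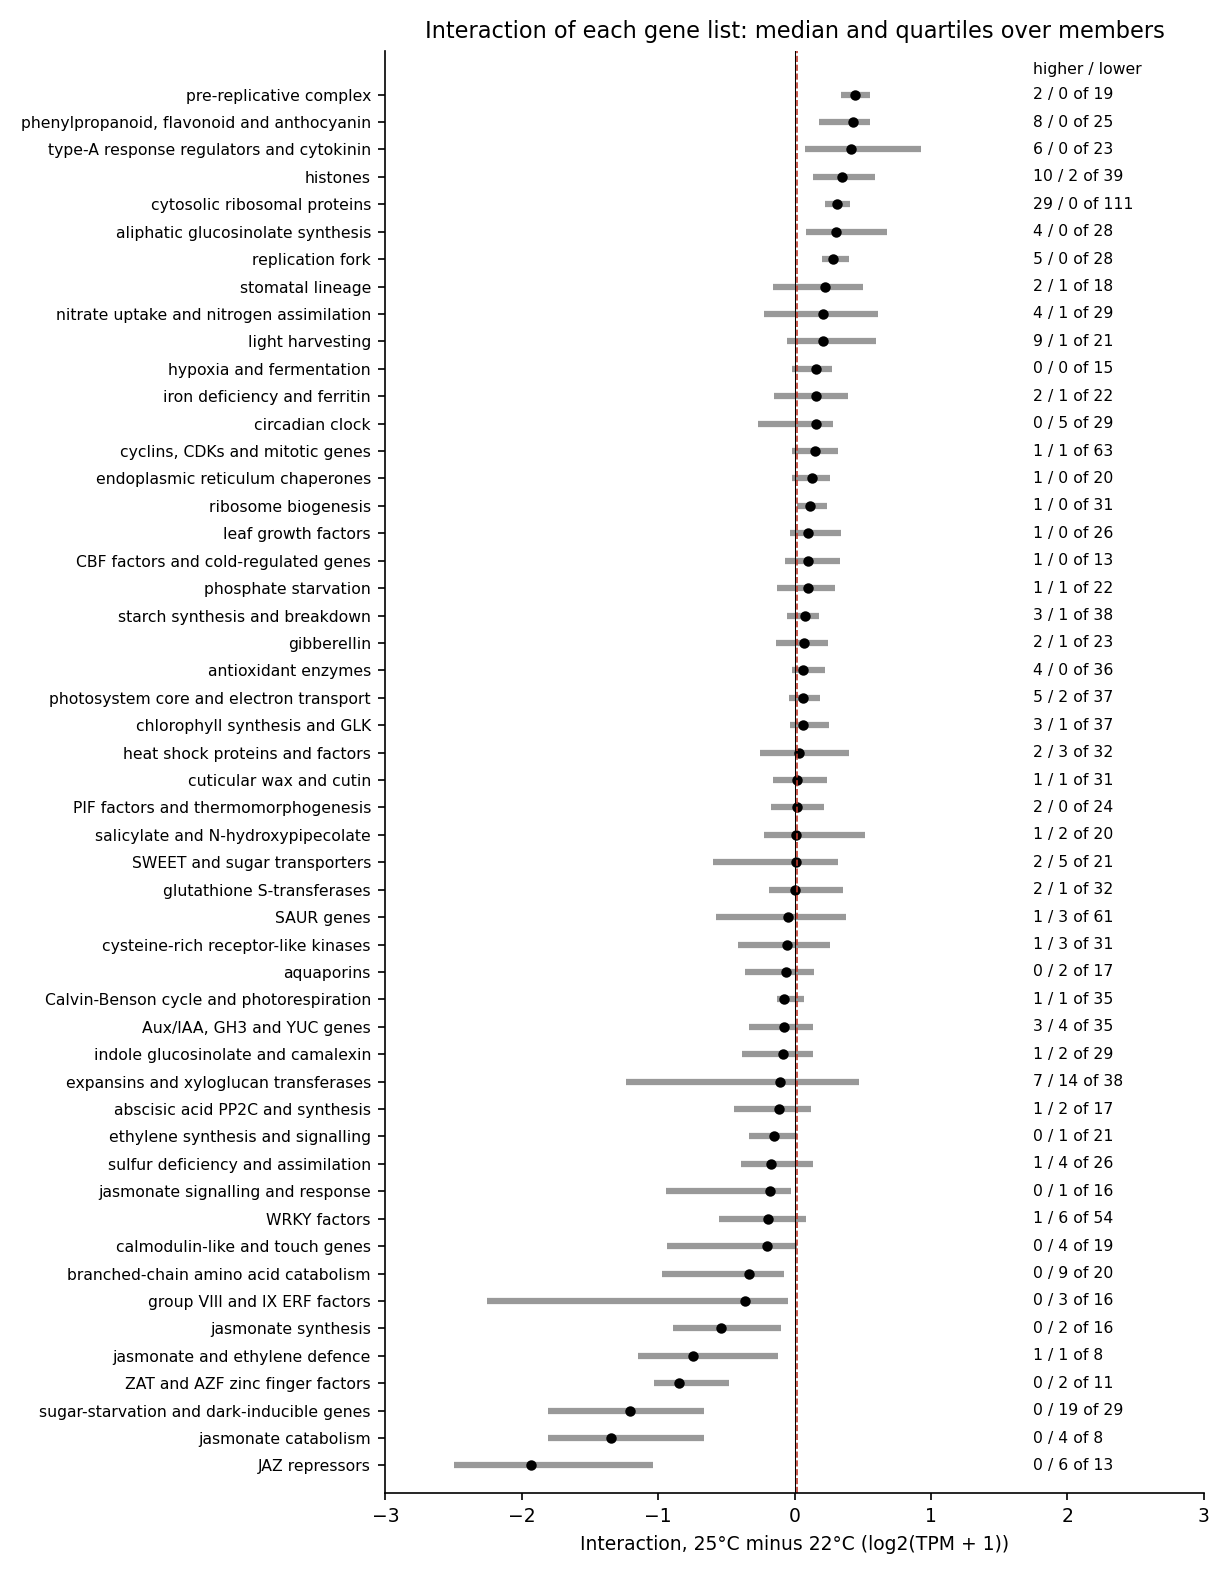
Interaction of 51 gene lists on the log2(TPM + 1) scale: points are medians over the tested members, grey bars run from the lower to the upper quartile, and the numbers give the members called higher and lower out of those tested. The dashed line is the median of all genes, 0.02. JAZ repressors, jasmonate catabolism and sugar-starvation genes lie furthest to the left, and the pre-replicative complex, phenylpropanoid, cytokinin, histone and ribosomal lists to the right.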

How the data were processed

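Total RNA from the aboveground parts was sequenced on an Illumina NovaSeq with 3 biological replicates per group. The authors deposited TPM values (levels corrected for transcript length and scaled to a fixed sum) for 33039 genes in 18 samples. The methods describe estimates made with RSEM against TAIR10, while the sample notes name SeqPrep, Sickle, HISAT2 and StringTie. For their versions, and for whether counting used strand, the sources used here give nothing. TPM keeps no read totals, so the depth of a sample is unknown and no counting interval was given.

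Values were analysed as log2(TPM + 1), so folds of genes with low levels are understated. The 20044 genes that reached 1 TPM in 3 or more samples were fitted with limma 3.58.1 (R 4.3.3) as means of 6 groups over all 18 samples, with 12 residual degrees of freedom and a mean-dependent prior. The groups at 28°C entered the filter and the estimate of the spread but no contrast. The 12 samples alone left 19386 genes. P-values were adjusted by the Benjamini-Hochberg method over all genes tested, and a call needed an adjusted p of at most 0.05. The fit was tested on simulated data before use. The members and gene lists were chosen with earlier results of these data known.

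Named genes were the 10 largest called interactions in each direction (mean of at least 5 TPM in a group, not at 0 throughout a group, at least 200 bases long), the 5 most abundant called genes in each direction, up to 4 called genes per list with the largest interactions, and MCM2, MCM4, ORC2 and PIF4. Any other gene is said to have been chosen after its values were seen. Names, coordinates, overlaps and promoters came from the RefSeq annotation of TAIR10.1, which held 32548 of the 33039 genes, and 19760 promoters were searched on both strands. Alternatives were other pseudocounts, filters, scalings and fits, a minimum change of 1, a replicate block and the removal of each of the 12 samples.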

Additional observations from a re-analysis of the deposited data

Results flagged for a closer look

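The effect of the fungus differed between the 2 temperatures, by the limma test of that difference itself, in 876 genes with a higher and 1074 genes with a lower effect at 25°C. Listed here are the largest called changes in each direction, 20 in all. They come from genes that met the conditions for naming, such as at least 5 TPM in a group. A call was required and the choice was by size, so both follow from the selection. The upward ones were LURP1 (3.66), AT2G25510 (3.02), XTH31 (2.40), AT4G22513 (2.24), AT4G16880 (2.23), WAK1 (2.15), ADT6 (2.04), HSP70 (1.88), EXPA1 (1.85) and AT4G29030 (1.83), as interactions on the log2(TPM + 1) scale. The downward ones were AT2G08665 (-6.91), JAZ7 (-5.31), PHI-1 (-4.68), EXO (-4.32), AT5G03615 (-3.63), TCH4 (-3.62), AT2G20670 (-3.54), ERF6 (-3.44), AT4G03845 (-3.38) and MYC2 (-3.38). A larger upward call, 6.79, belonged to a gene outside the conditions for naming. Several listed calls were lost when single samples were left out. Of the 12 removals, WAK1 lost its call in 11, LURP1 and ADT6 in 8, HSP70 in 7 and AT2G25510 in 6. Among the downward genes, ERF6 lost it in 9, AT2G20670 in 8, JAZ7 in 6 and MYC2 in 4. The other listed genes kept their calls in all removals. Groups of 3 samples are too small for a test of single outlying samples. The high CK sample 2 at 22°C of LURP1 (5.83, 42 and 6.73 TPM) and of AT2G08665 (1221, 8883 and 1078 TPM) is therefore given as a value.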

How the results depend on the processing

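No called interaction of the 1950 that was still tested changed sign under any alternative. The estimate itself stays the same under other filters, the 12-sample fit, the robust fit, the replicate block and the minimum change. Its sign could change only with other pseudocounts, scalings or removals. With a change larger than 1 also required, the interaction had 115 higher and 310 lower calls, Si against CK 1603 and 268 at 22°C and 1891 and 540 at 25°C, and the groups held 116 gained or deepened falls, 11 lost or reduced falls, 60 reversed, 94 gained or enlarged rises and 144 lost or reduced rises. A fit of the 12 samples alone, with 19386 genes, gave 509 higher and 731 lower interactions and called 60.9% of the 1950 again, with 60 lost or reduced falls, 420 gained or enlarged rises and 321 lost or reduced rises. Median-of-ratios scaling gave 4927 and 5083 calls of Si against CK at 22°C and 5626 and 5498 at 25°C, with 259 lost or reduced falls and 5 called genes with no call at either temperature. Quantile normalization gave 4348 and 5011, 5385 and 5332, 290 and 9, with 1191 higher and 1084 lower interactions, and a robust fit 1 such gene without a call. These 2 scalings set the median difference of Si against CK near 0, where the TPM values put it at 0.26. The median of the JAZ list was -2.52 and -2.29 with pseudocounts of 0.1 and 0.5 TPM, that of expansins and xyloglucan transferases -0.36 with 0.1, and that of the cytokinin list 0.67 with 0.1 and 0.76 with a filter of 5 TPM. The ERF list had a median of -1.11 with that filter and the phenylpropanoid list 0.18 without a filter. The cause of these shifts was not tested. A replicate block gave 1025 higher and 1344 lower calls. The deviations of same-numbered samples from their group means correlated between -0.03 and 0.16, above 0 in 16 of 18 pairs and above 0.1, the value required in every pair, in 3, so the numbers were not taken as pairs.

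Without 1 sample at a time, the groups ranged from 389 to 957 gained or enlarged rises, 55 to 120 lost or reduced falls, 297 to 569 lost or reduced rises, 305 to 523 gained or deepened falls, 99 to 182 reversed and 0 to 4 with no call, while higher interactions ranged from 488 to 1131 and lower ones from 717 to 1183. The median of the JAZ list then ranged from -2.57 to -1.52. Of the 182 named genes that were called, 107 kept their call in all 12 removals and 120 in all other alternatives. With 3 samples per group and depth unknown, a missed call does not show an equal effect.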
